A study of Homo sapiens with 4 samples.

Results

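The 10 genes described here are members of the AP-1 transcription factor family and immediate early genes: FOS, FOSB, FOSL1, FOSL2, JUN, JUNB, JUND, ATF3, EGR1 and IER3. They were taken by name and make up 10 of the 19974 protein-coding genes annotated on chromosomes 1 to 22 and X. A chromatin immunoprecipitation sequencing (ChIP-seq) peak of BRD8 was assigned to a gene when its summit, the base of highest signal, lay inside the gene or within 1 kb of either end. All peaks with a summit within 50 kb were described as well. By this rule 17 of 22303 peaks in HCT116 cells and 5 of 12874 peaks in SW480 cells belonged to the 10 genes, and 85 and 36 peaks lay within 50 kb.

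BRD8 is a bromodomain protein of the TIP60/NuA4 histone acetyltransferase complex. HCT116 and SW480 are established human colorectal cancer lines, and the labels name no treatment, stimulation or genetic change in either. Each line has 1 BRD8 ChIP library and 1 input library, so no value below has a replicate check. The peak lists hold no expression values, so the identity of the lines and the activity of the genes were not examined. Peaks had a median summit pileup of 24 overlapping fragments in HCT116 and 26 in SW480. The authors kept peaks at a q threshold of 0.05, so a gene without a peak may still be bound more weakly.

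AP-1 is a dimer of basic leucine zipper proteins, built from a JUN family member paired with another JUN, a FOS family member or an ATF protein. FOS, FOSB, JUN, JUNB, EGR1, ATF3 and IER3 are immediate early genes, which growth factors and stress switch on within minutes without new protein synthesis. Serum response factor, acting through CArG boxes, and CREB-type factors, acting through cyclic AMP response elements (CRE), are among the known drivers of their promoters.

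The promoters of 4 members show where the HCT116 peaks sat relative to known elements. Each is given from 250 bases before the RefSeq start (GRCh38.p14) up to the base before it, 5′ to 3′ on the strand of the gene, and capitals mark matches to the motifs listed after them. FOS and FOSB are shown because the HCT116 summit fell inside the window. JUND is shown because a peak region covered its window whole, and EGR1 because the edge of its region fell on a CArG box. Whole windows were also covered at FOSB, FOSL2 and JUNB, and FOSL2 and JUNB are not shown. FOS lies at chr14:75278578-75278827 on the plus strand, FOSB at chr19:45467746-45467995 (plus), JUND at chr19:18281623-18281872 (minus) and EGR1 at chr5:138465229-138465478 (plus).
FOS: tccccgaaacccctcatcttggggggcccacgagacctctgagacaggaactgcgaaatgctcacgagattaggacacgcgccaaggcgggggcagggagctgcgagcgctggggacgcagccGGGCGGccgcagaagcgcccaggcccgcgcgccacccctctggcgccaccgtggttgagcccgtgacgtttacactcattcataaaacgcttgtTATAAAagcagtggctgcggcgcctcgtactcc
FOSB: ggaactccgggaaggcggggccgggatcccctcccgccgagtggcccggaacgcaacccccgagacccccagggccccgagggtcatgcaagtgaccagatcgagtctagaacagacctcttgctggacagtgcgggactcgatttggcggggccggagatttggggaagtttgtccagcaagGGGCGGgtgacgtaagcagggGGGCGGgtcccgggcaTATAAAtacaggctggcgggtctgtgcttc
JUND: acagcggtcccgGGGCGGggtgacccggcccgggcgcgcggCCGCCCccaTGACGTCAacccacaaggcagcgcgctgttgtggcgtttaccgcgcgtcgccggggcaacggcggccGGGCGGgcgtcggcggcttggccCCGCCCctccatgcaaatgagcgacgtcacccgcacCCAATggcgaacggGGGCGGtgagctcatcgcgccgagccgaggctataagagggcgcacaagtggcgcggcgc
EGR1: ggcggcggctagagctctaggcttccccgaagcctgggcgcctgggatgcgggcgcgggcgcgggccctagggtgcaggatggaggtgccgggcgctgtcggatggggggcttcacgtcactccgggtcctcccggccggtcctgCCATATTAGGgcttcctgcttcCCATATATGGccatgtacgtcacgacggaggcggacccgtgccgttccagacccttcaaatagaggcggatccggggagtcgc

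Both strands were searched for the AP-1 site TGANTCA, the CRE TGACGTCA, the CArG box, the ETS site CCGGAAG, the CCAAT box CCAAT, the TATA box TATAAA, the E-box CACGTG and the GC box GGGCGG. The RefSeq promoter table held 9 windows for 8 members, with 2 for ATF3, and none for FOSL1 and IER3. Sequence further upstream was not searched. Among these 8 members EGR1 alone had CArG boxes in its window, 2 of them, starting 105 and 83 bases before the start. Over 22156 promoter windows of protein-coding genes, 1.18% held this motif. The EGR1 peak region covered 148 of the 250 bases and ended within the first of these boxes. JUND was the only one of the 8 with a full CRE in its window, 200 bases before the start, against 2.01% of all windows. The TATA box was found in FOS, FOSB, JUNB and the second ATF3 window, 4 of 9 against 9.0% of all windows. It began 33 bases before the start in FOS, 30 in FOSB and 31 in JUNB. In the second ATF3 window it began much further away, 230 bases before the start. The GC box was found in 6 of 9 windows against 53.7%, and the CCAAT box in 4 of 9 against 32.7%. The FOS summit, 126 bases before the start, fell within the GC box that begins at 127. None of the 9 windows held a TGANTCA, an E-box or the ETS site, which were found in 5.36%, 7.37% and 10.7% of all windows. These matches describe letters in the window and not occupied sites. The member windows had a median GC content of 65.6%, and the median of all windows was 62.0%.

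All 10 genes had a BRD8 peak in HCT116, where 52.3% of protein-coding genes did, and 4 of 10 had one in SW480, where 29.8% did. The genes were chosen with earlier results of these data known, so the choice itself may have shaped these counts. FOSL1, FOSL2, JUN and IER3 were the 4 genes found in both lines (background 26.7%). The other 6 were found in HCT116 alone (25.6%), and 0 in SW480 alone (3.04%). Counting summits within 1 kb of a gene end only, the numbers were 8 of 10 in HCT116 (background 44.0%) and 4 of 10 in SW480 (22.1%). Of these, 3 genes had such a peak in both lines (20.3%), 5 in HCT116 alone (23.7%) and 1, FOSL2, in SW480 alone (1.81%). FOSL2 and ATF3 were the genes whose HCT116 summits all lay deeper inside. The HCT116 list is longer than the SW480 list, and when it was cut to the same number of peaks 9 of the 10 genes kept a peak, with JUND lost, and 44.2% of all protein-coding genes had one.

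Enrichment at these genes was moderate. Fold enrichment, as the authors' peak caller gave it, sets the ChIP pileup at the summit against the local background. Over the 17 HCT116 peaks it ran from 2.36 to 7.44, and over the 5 SW480 peaks from 1.91 to 3.70. The highest fold per gene had a median of 4.56 in HCT116, while the median over all protein-coding genes with a peak was 4.87. In SW480 the medians were 3.08 and 3.54. IER3 stood highest, above 82.6% of bound protein-coding genes in HCT116, and JUND lowest, above 1.27%.

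**Figure D1:**
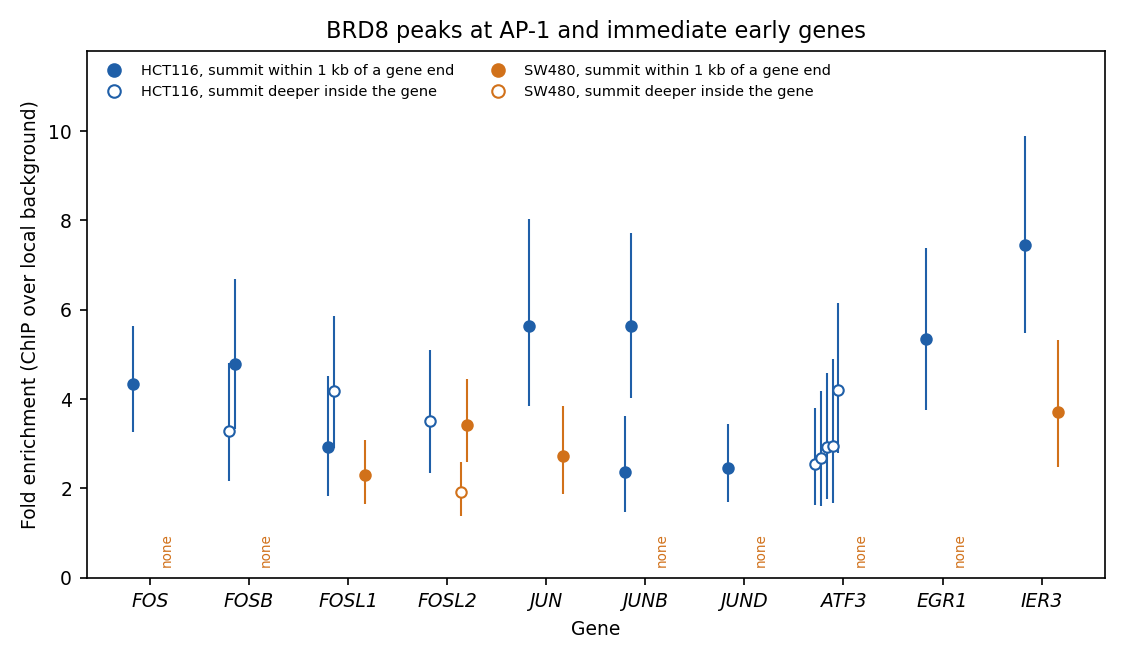
Fold enrichment (vertical axis, linear) of every BRD8 peak with a summit inside or within 1 kb of each gene (horizontal axis), HCT116 in blue and SW480 in orange; filled points are summits within 1 kb of a gene end, open points lie deeper inside, and bars are 95% Poisson intervals of the summit pileup divided by the background. All 10 genes have an HCT116 point, from 2.36 to 7.44, and 4 have a SW480 point.

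Among the JUN family, JUN carried a peak in both lines upstream of its start. JUN, the founding partner of AP-1, lies on chromosome 1 (58780791 to 58784047, GRCh38, minus strand). In HCT116 the summit lay 412 bp upstream of the start with a fold of 5.65, a pileup of 29 fragments (95% Poisson interval 19.4 to 41.6) and a background of 4.31. In SW480 it lay 849 bp upstream with a fold of 2.72, a pileup of 30 (20.2 to 42.8) and a background of 10.4. The pileups were thus nearly equal in the 2 libraries while the backgrounds differed, but the lists give no read totals to scale them by. The SW480 region (58784735 to 58785011) overlapped the HCT116 region (58784383 to 58785005), with summits 437 bp apart. A second HCT116 peak, 1740 bp upstream inside the divergent long noncoding RNA gene JUN-DT, had a fold of 4.32 and no SW480 counterpart.

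JUNB, a JUN paralogue that acts as a weaker activator, lies on chromosome 19 (12791486 to 12793315) and its start is overlapped by the neighbouring gene HOOK2. HCT116 had 2 peaks there. The stronger, with a fold of 5.64, a pileup of 37 (26.1 to 51.0) and a background of 5.74, had its summit 1248 bp past the start, 581 bp from the 3′ end of JUNB and 384 bp from an end of HOOK2. The weaker, 157 bp past the start, was enriched 2.36-fold, and its −log10 q was 1.69, close to the threshold of the list. SW480 had no peak at JUNB, and its single peak within 50 kb lay 12784 bp upstream inside HOOK2. JUND, the family member expressed most steadily in resting cells, lies on chromosome 19 (18279694 to 18281622, minus strand). Its HCT116 peak under the 1 kb rule was beyond the 3′ end, 2316 bp from the start, with a fold of 2.45, a pileup of 31 (21.1 to 44.0) and the highest background of the 17 peaks, 12.0. A stronger HCT116 region (18281278 to 18283696, fold 4.33, pileup 29) covered the JUND promoter, but its summit lay 1124 bp upstream of the start and so outside the rule. SW480 had no peak within 41 kb of JUND.

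Among the FOS family, the FOS promoter window was covered in HCT116 alone, over 199 of its 250 bases. Its TATA box lay outside the peak region. FOS, the partner that heterodimerizes with JUN, lies on chromosome 14 (75278828 to 75282230). The HCT116 summit was 126 bp upstream of the start, and its pileup of 53 fragments (39.7 to 69.3) was the highest of the 17 HCT116 peaks. Because the local background was also high, at 11.5, the fold was 4.33. Both lines had a further peak just outside the rule. Its summit was 1327 bp upstream in HCT116 (fold 2.71, pileup 19) and 1325 bp upstream in SW480 (fold 2.33, pileup 30), 2 bp apart. The regions of the lines also overlapped at a pair of sites in LINC01220, a long noncoding RNA gene downstream of FOS. There the folds were 3.01 and 2.79 in HCT116 and 3.51 and 3.58 in SW480, so SW480 had its stronger FOS peaks away from the gene.

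FOSB, a FOS paralogue known from the response to repeated stimulation in neurons, lies on chromosome 19 (45467996 to 45475179). HCT116 had a summit 148 bp upstream of the start with a fold of 4.79, a pileup of 32 (21.9 to 45.2) and a background of 5.89, and a second one 1603 bp past the start with a fold of 3.30. SW480 had no peak in the gene or within 1 kb. FOSL1, which encodes FRA1, lies on chromosome 11 (65892049 to 65900545). In HCT116 its stronger summit was inside the gene, 1469 bp from the end of higher coordinate, with a fold of 4.19 and a pileup of 32, and a weaker one lay 438 bp beyond that end with a fold of 2.94. The SW480 summit was inside as well, 898 bp from the same end, with a fold of 2.30, a pileup of 41 (29.4 to 55.6) and a background of 17.3. At FOSL1 the fold value was thus lower in SW480. The pileup intervals of the lines overlapped, with 21.9 to 45.2 in HCT116, and the lists give no read totals. The summits inside the gene lay 571 bp apart.

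FOSL2, which encodes FRA2, lies on chromosome 2 (28392858 to 28417317), and its start is overlapped by the antisense gene FOSL2-AS1. In SW480 a narrow peak 230 bp past the start had a fold of 3.43, a pileup of 54 (40.6 to 70.5) and a background of 15.0, and a second one 2102 bp past the start had a fold of 1.91. In HCT116 the only summit inside the gene lay 16303 bp past the start with a fold of 3.52 and a pileup of 26. A wide HCT116 region (28390083 to 28393692) did cover the FOSL2 start, with a fold of 6.06 and a pileup of 39 (27.7 to 53.3), but its summit was 1398 bp upstream. That wide region overlapped the SW480 peak at the start and another SW480 peak with its summit 2745 bp upstream (fold 4.22).

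**Figure D2:**
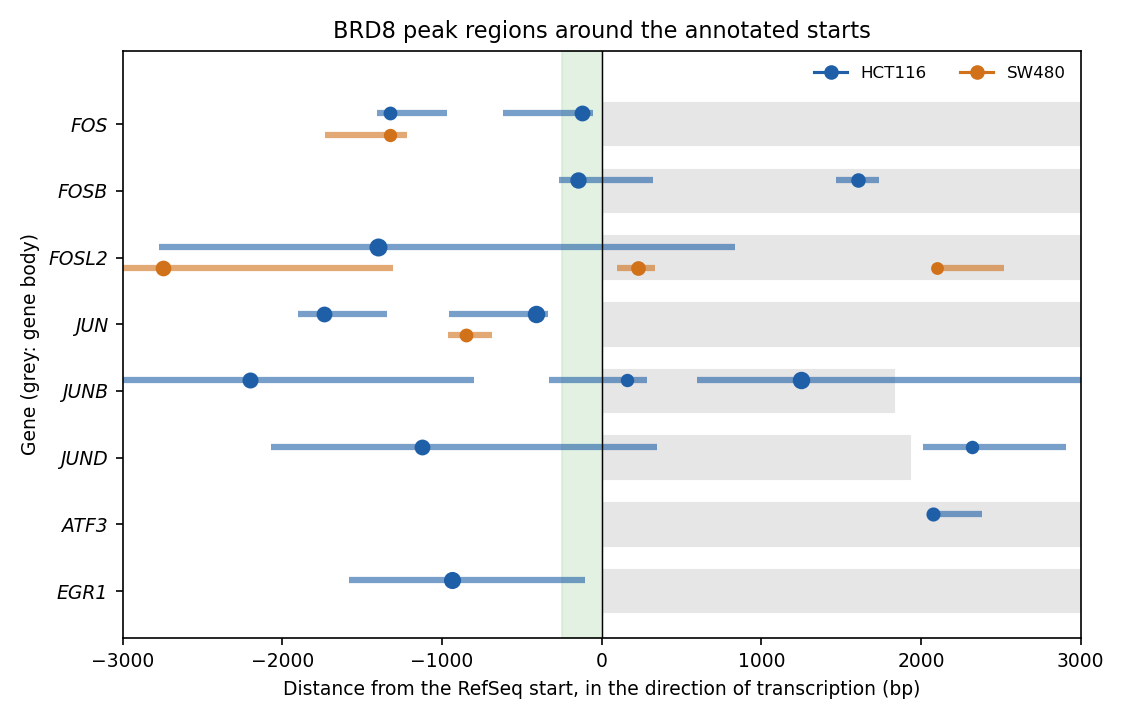
BRD8 peak regions (lines) and their summits (points, larger for higher fold) within 3000 bp of the RefSeq start of the 8 genes with a start in the promoter table, in the direction of transcription (horizontal axis, bp), HCT116 in blue and SW480 in orange; grey is the gene body and green the 250 bases before the start. HCT116 regions reach into the green window at 6 of the 8 genes and SW480 regions at 0.

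ATF3, a stress-induced basic leucine zipper repressor and the longest of the 10 genes (chromosome 1, 212565407 to 212620777), differed in layout. HCT116 had 5 peaks inside it and none within 1 kb of an end. They lay 2075, 14811, 31269, 42901 and 43524 bp past the first start, and the last had the highest fold, 4.22, with a pileup of 25 (16.2 to 36.9). The promoter table holds 2 starts for ATF3. Whether any of these summits lies at a further start inside the gene was not examined. The other 4 had folds from 2.55 to 2.95 and −log10 q values from 2.05 to 2.61. SW480 had no peak within 50 kb of ATF3.

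EGR1, a zinc finger transcription factor outside the AP-1 family that is induced by the same signals, lies on chromosome 5 (138465479 to 138469303). It had 1 HCT116 peak within 50 kb in all, with its summit 940 bp upstream of the start, a fold of 5.34, a pileup of 35 (24.4 to 48.7) and a background of 5.74. This summit was the one closest to the 1 kb limit from within, and the IER3 peak at 1053 bp (fold 3.12) was the closest from outside. SW480 had no peak within 50 kb of EGR1. IER3, an early response protein linked to cell survival, lies on chromosome 6 (30743199 to 30744547). It had the highest fold of the 10 genes in both lines. The summit lay 363 bp beyond the end of higher coordinate in HCT116 and 359 bp beyond it in SW480. In HCT116 the fold was 7.44 (95% Poisson interval 5.47 to 9.90), the pileup 45 and the background 5.18. In SW480 the fold was 3.70 (2.48 to 5.33), the pileup 27 and the background 6.56. These fold intervals hold the background fixed and do not overlap. The pileup intervals do overlap, with 32.8 to 60.2 in HCT116 and 17.8 to 39.3 in SW480. Both kinds of interval cover counting error within the 2 libraries only.

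**Figure D3:**
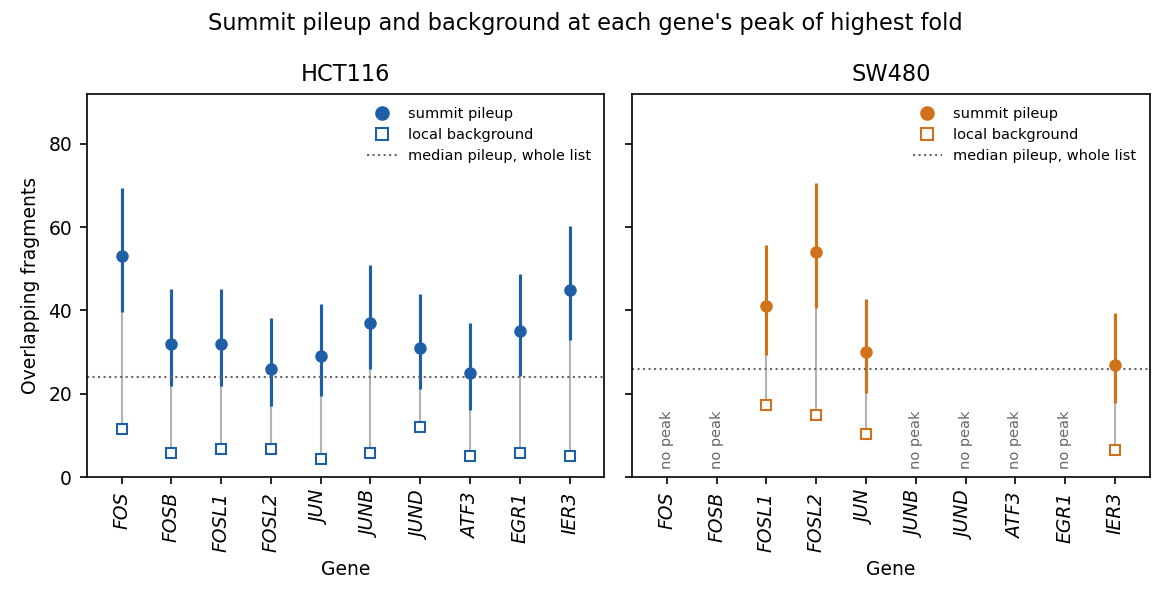
Summit pileup (filled circles, with 95% Poisson intervals) and local background (open squares), both in overlapping fragments, at the peak of highest fold of each gene, HCT116 left and SW480 right; dotted lines are the median pileups of the whole lists, 24 and 26. Backgrounds run from 4.31 at JUN to 12.0 at JUND in HCT116 and from 6.56 at IER3 to 17.3 at FOSL1 in SW480.

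Around the annotated starts, the members' nearest summits lay mostly upstream in HCT116. Of the 8 members with a RefSeq start, 7 had a summit within 2 kb of it (background 50.8% of 15812 genes with a start). The nearest summit was upstream in 6 of these 7, with JUNB the exception, and downstream positions were the more frequent over all genes, where 46.4% of 8034 nearest summits were upstream. The median distance from the start was 412 bp for the members and 244 bp for all genes. In SW480 3 of the 8 members had a summit within 2 kb of the start (background 27.6%), FOS and JUN upstream and FOSL2 downstream. A peak region reached into the 250 bases before a start at 6 of 8 members in HCT116 (background 40.5%), namely FOS, FOSB, FOSL2, JUNB, JUND and EGR1. In SW480 this held for 0 of 8 members (background 14.1%). With 8 genes the SW480 count lies near its background.

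The surroundings of the 10 genes differed widely. Within 50 kb the number of HCT116 peaks ran from 1 at EGR1 to 18 at IER3, with a median of 7, and the SW480 number from 0 at ATF3 and EGR1 to 12 at IER3, with a median of 3. The medians over all protein-coding genes were 2 and 1, and 72.7% and 53.9% of genes had at least 1 such peak. JUNB, with 15 HCT116 peaks, and FOSL1, with 14, have 8 and 10 other protein-coding genes within 50 kb, while FOS, FOSL2 and JUN have 0. IER3 and EGR1, with the most and the fewest HCT116 peaks, have 3 each. The highest fold within 50 kb of any member was 13.4, in a HCT116 region of 8028 bp with a pileup of 151. The summit of this region lay 26105 bp from IER3 and 187 bp from an end of MDC1, a DNA damage response scaffold, and SW480 had a fold of 8.31 there. Other SW480 summits in the region were nearest to the gene TUBB, the closest of them 387 bp from its end. Near FOSB, the highest HCT116 fold was 8.10 inside the excision repair gene ERCC1, 1218 bp from its end, and the highest SW480 fold was 5.04, also inside ERCC1. Near FOSL1 the highest folds, 6.98 and 3.01, lay at MUS81, which encodes a DNA endonuclease subunit. Near JUND they were 6.98 and 3.74, at LSM4, an RNA-binding protein of the spliceosome. Near JUNB the highest HCT116 fold was 6.12, inside HOOK2 and 16131 bp upstream, and near JUN the highest SW480 fold was 4.20, inside JUN-DT and 31651 bp upstream.

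**Figure D4:**
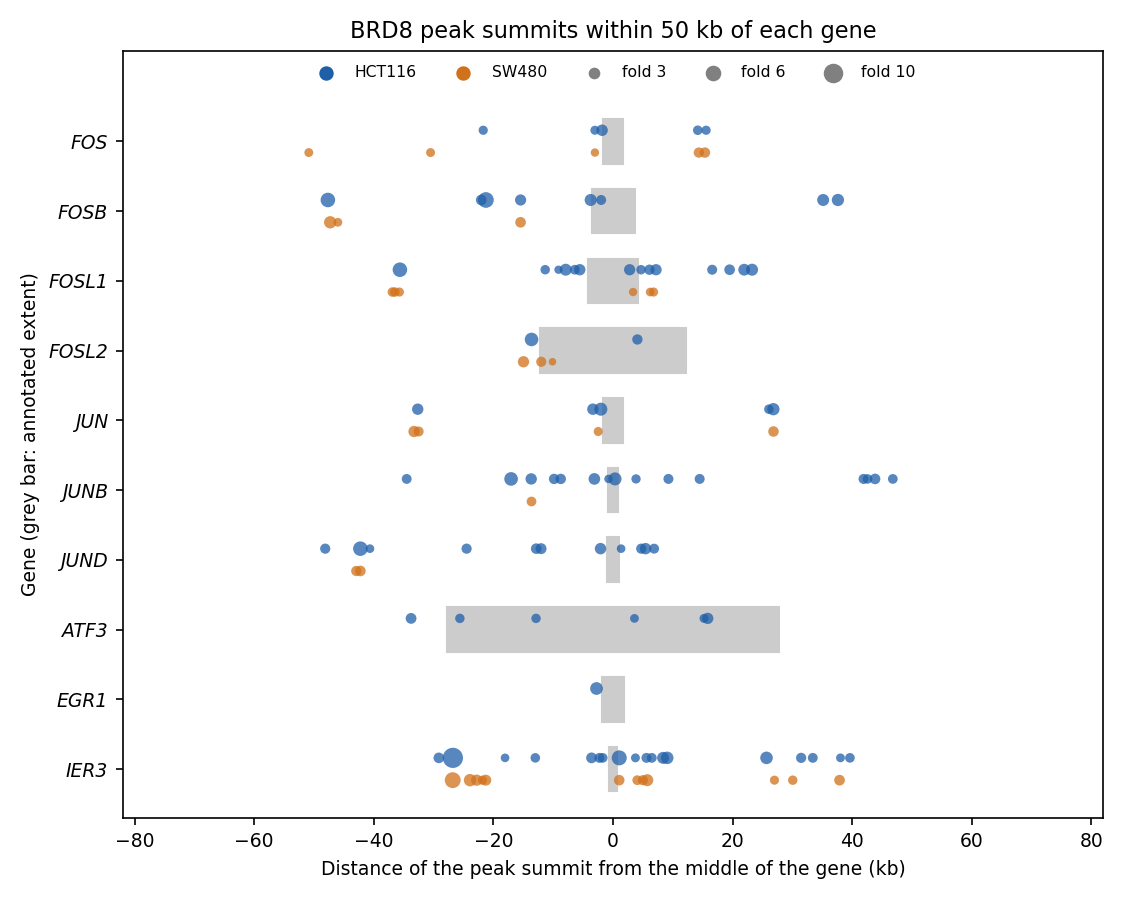
Summits of all BRD8 peaks within 50 kb of each gene, as distance from the middle of the gene in kb (horizontal axis), in the direction of transcription for the 8 genes with a start in the promoter table and in the direction of rising coordinates for FOSL1 and IER3; point area is proportional to fold, blue is HCT116, orange is SW480, and grey bars are the genes. EGR1 has 1 summit in all, and IER3 has 18 in HCT116 and 12 in SW480.

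Outside the genes themselves, several sites coincided between the lines to within a few bases. Of the 85 HCT116 peaks within 50 kb of a member, 20 overlapped a SW480 peak, 23.5% against 24.2% of the whole HCT116 list. Of the 36 SW480 peaks, 29 overlapped a HCT116 peak, 80.6% against 49.1% of the whole SW480 list. Some of the SW480 peaks fall into the same wide HCT116 region, so they are not separate sites. Of the 29, 5 lie in the region at MDC1 and TUBB. In 6 overlapping pairs the summits were at most 20 bp apart, 1 pair each near FOS (2 bp), FOSB (8 bp), JUN (15 bp), JUNB (15 bp), JUND (1 bp) and IER3 (4 bp). The IER3 pair alone lies within 1 kb of its gene. The FOSB pair lies 11864 bp upstream of the start outside any annotated gene, with folds of 4.13 in HCT116 and 3.74 in SW480. The JUN pair lies 28445 bp downstream of the start, with 4.98 and 3.66, the JUNB pair 12769 bp upstream inside HOOK2, with 4.28 and 3.13, and the JUND pair at LSM4. Among all overlapping HCT116 peaks 19.2% had summits this close, and here 6 of 20 did.

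Other genes of the pathway differed in how often they carried a peak. Of 34 other immediate early genes, 25 had a peak in HCT116 and 7 in SW480. All 7 were also bound in HCT116, and 26.7% of all protein-coding genes were bound in both lines. ZFP36L2, which promotes decay of AU-rich mRNAs, had the highest folds in HCT116 at 10.3, with 2.01 in SW480, followed by IER2 at 8.91 and 3.94. DUSP2, a phosphatase of MAP kinases, had 8.68 and 3.67. Of 17 other AP-1 and related leucine zipper genes, 10 had a peak in each line, 9 of them in both (background 26.7%). ATF4, the effector of the integrated stress response, had 12.5 and 9.14, ATF1 9.12 and 2.92, and NRL 6.34 and 6.12. JDP2, a repressor of AP-1, was bound in SW480 alone (background 3.04%), with a fold of 2.63. Of 22 upstream regulators, 17 and 5 had a peak. RPS6KA5, a kinase of CREB and histone H3, had 7.86 and 8.28, and ELK3, an ETS partner of serum response factor, had 4.54 and 3.72. Of 17 AP-1 target genes, 11 and 7 had a peak. HMGA1, a chromatin architectural protein, had 5.97 and 3.33, and CCND1, which encodes cyclin D1, had 3.93 and 3.76.

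Set beside the background shares of 52.3% and 29.8%, the shares with a peak were 73.5% and 20.6% for the other immediate early genes, 58.8% in each line for the leucine zipper genes, 77.3% and 22.7% for the upstream regulators, and 64.7% and 41.2% for the targets. The medians of the highest fold per bound gene in HCT116 were 4.38, 6.07, 4.60 and 4.64 in the same order, around the 4.87 of all bound genes. In SW480 they were 3.02, 2.96, 3.52 and 3.33, beside 3.54 for all bound genes. No test was made between lists, since genes are not replicates and each line has 1 library.

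**Figure D5:**
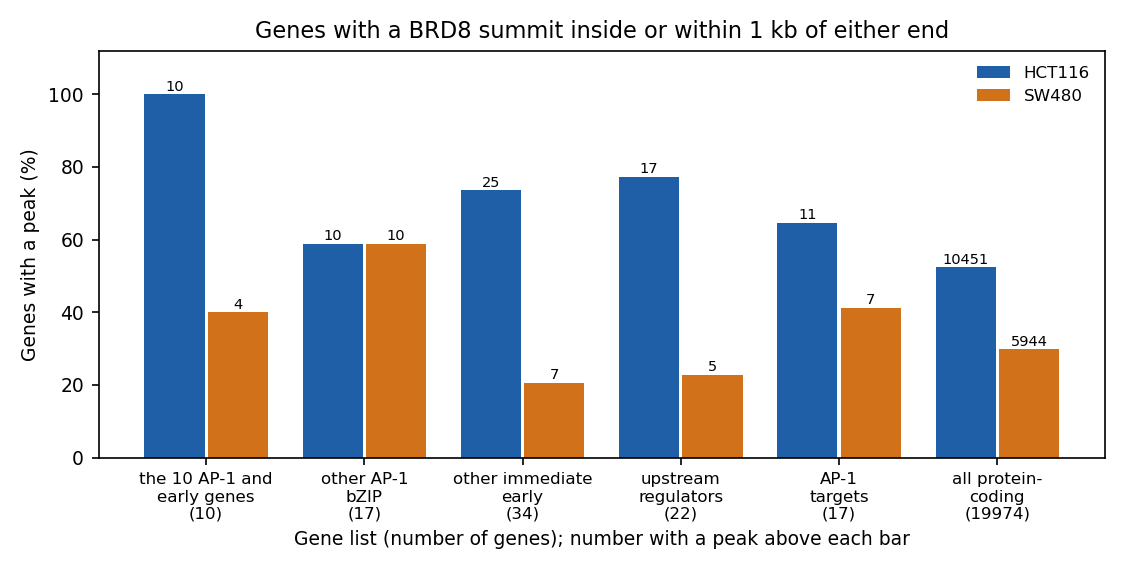
Share of genes with a BRD8 summit inside or within 1 kb of either end (vertical axis, %), for the 10 members, the 4 related lists and all protein-coding genes (horizontal axis, with the size of each list), HCT116 in blue and SW480 in orange; numbers above the bars are counts of genes. The members have 10 of 10 in HCT116 and 4 of 10 in SW480, against 52.3% and 29.8% of all genes. Members and lists were chosen with earlier results of these data known.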

How the data were processed

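BRD8 ChIP-seq peak lists of HCT116 and SW480 were analysed, 1 library per line. Per the labels' protocols, cells were fixed in 1% formaldehyde for 10 minutes, chromatin was cut with micrococcal nuclease, and 2 µg of a polyclonal antibody was used. Input signal was not analysed. Per the submitters' processing notes, Trimmomatic 0.33, Bowtie2 2.4.1, MACS2 and deepTools were used with GRCh38. The versions listed for the last pair are not used here, and on read filters and duplicates the sources used here say nothing.

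The authors called peaks per library. The deposited values are the fold (a ratio of ChIP to local background at the summit, 1 added to each), the −log10 p-value and −log10 q-value, a score (in 99.8% of HCT116 peaks and 99.98% of SW480 peaks, 10 times the −log10 q rounded down) and the summit offset. The lists give no read totals. Summit pileup and background were solved from fold and p, with a solution for 99.99% (HCT116) and 99.98% (SW480) of peaks, and 95% Poisson intervals of the pileup cover counting error only and hold the background fixed. Fold depends on the depth and input of a library, and the summit is the highest point of its region.

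Chromosomes 1 to 22 and X were kept. Genes and promoters came from RefSeq tables of GRCh38.p14, and all 100 list entries matched by symbol. Overlap needed 1 bp. The scripts (Python 3.11.15, scipy 1.17.1) were tested on simulated data. All 10 members are named. From each related list the rule names the 2 genes of highest fold per line and up to 2 bound in SW480 alone (some of these genes are not reported here), and from each 50 kb window the peak of highest fold per line. The members, lists and rules were chosen with earlier results of these data known.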

Additional observations from a re-analysis of the deposited data

How the results depend on the processing

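The HCT116 counts were the steadier. All 10 genes, or 9 of 10, had an HCT116 peak under every threshold, window, overlap and list length tried, while the share of all protein-coding genes ran from 43.2% to 56.0% over the thresholds, windows and list length. The gene-end count was from 6 to 10, beside 34.9% to 52.2% of all genes. With a −log10 q of at least 5, the SW480 count fell from 4 to 2 genes under both rules, leaving FOSL2 and IER3. At this threshold 19.0% and 14.5% of all protein-coding genes had such a SW480 peak. The count in both lines fell to 2, and no share of all genes in both lines is available at this threshold. Within 500 bp of a gene end SW480 had 2 genes (17.0% of all genes). When regions of the lines had to overlap by at least 50% of each, 0 genes were shared. No share of all genes is available under that rule, so this 0 has no reference. At a −log10 q of at least 5, SW480 had 5 of 17 other leucine zipper genes, 4 of 34 other immediate early genes and 4 of 17 AP-1 targets. These stand beside the 19.0% of all protein-coding genes. With a 5 kb window SW480 had 13 of 34 other immediate early genes, beside 33.0% of all protein-coding genes. Within 10 kb the members had a median of 3.5 HCT116 peaks and 0.5 SW480 peaks, with no all-gene median available at this distance. With a 2 kb window, chosen after seeing the data, SW480 gained FOS for 5 genes (30.9% of all genes), and the highest HCT116 fold became 6.06 at FOSL2 and 4.33 at JUND. Of 73 alternative values of the counts and medians, 62 stayed within 1.5 times the main value. No paired analysis was possible because each line has 1 ChIP library. Pileups near the lowest called, 12 and 13 fragments, limit what can be seen at weak sites.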
